A study of Mus musculus with 8 samples.

Results

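The cytosolic ribosomal proteins are the protein parts of the ribosomes that translate nuclear mRNA. Their genes were followed here in tumor-associated macrophages (TAMs) from 8 tumor-bearing mice. Members were the rows of the count table whose gene symbol begins with Rpl or Rps and a digit, without the Rps6k kinases and rows marked as pseudogenes (-ps), and with at least 80 counts summed over the 8 mice. The letters matched 97 rows, of which 10 were kinases, 5 were pseudogenes and 3 (Rpl3l, Rpl10l and Rpl39l, with 15, 9 and 22 counts) stayed under the minimum. The 79 members, of 23413 rows in all, comprised 46 Rpl genes of the large subunit and 33 Rps genes of the small subunit by symbol. Of these, 73 were standard ribosomal proteins. The other 6 were Rps4y2, Rpl36al, Rpl7l1, Rpl22l1 and Rps27l, which are relatives of a standard gene, and Rps19bp1, which encodes a protein that binds Rps19 and is no part of the ribosome. Ribosomal proteins that carry other symbols, such as the acidic stalk proteins, Rpsa and Rack1, were read separately.

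All mice were male C57BL/6 mice of 8 to 10 weeks bearing a subcutaneous tumor of B16F10, a mouse melanoma line. Dosing took place 6 and 12 days after the tumor cells were implanted. On day 18 the TAMs were sorted from each tumor as cells positive for CD45, F4/80 and CD11b and negative for Gr-1. The vehicle DMSO was given to 2 mice by a route that is not stated. Thiostrepton, a thiopeptide antibiotic, was given intraperitoneally (I.P.) to 4 mice at a dose not named for them and by paratumor subcutaneous injection (S.C.) to 2 mice at 20 mg/kg. Each mouse gave its own library, and no sample was pooled. The comparisons ask whether thiostrepton by either route changed the TAM transcriptome and whether the routes differed. The paper describes the S.C. dose as lower than its I.P. doses. Route and dose therefore cannot be told apart in S.C. against I.P. mice.

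Ribosomal proteins are made in near equal amounts, since each ribosome holds 1 copy of nearly every one of them. Their mRNAs are short, abundant and begin with a run of pyrimidines at the 5′ end (the TOP motif), through which the mTORC1 kinase and the RNA-binding protein Larp1 control their translation. In macrophages the need for ribosomes varies with growth and activation. Thiostrepton itself is known as an inhibitor of bacterial translation that binds the large ribosomal subunit of bacteria, and it also acts on mitochondrial translation.

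The sequences around the annotated transcription start show the features these genes share and where they part. Windows of 60 bases centred on the start were taken from RefSeq (GRCm38.p6), in which 59 of the 79 members had an entry. Each window is written on the strand of its gene, with 30 bases before the start and 30 from the start on. Capitals mark CTTTCC or CTTCC or CCGGAAG on either strand. CCGGAAG read on the opposite strand holds CTTCC, so each CCGGAAG match is a CTTCC match too. Rps27 and Rps27rt are shown because Rps27 was the member with the widest range between mice and Rps27rt is its near-identical copy. Rpl37a and Rpl10 were among the members with wide differences between mice, and Rps25 had the smallest P of all members. Rpl7l1 and Rps19bp1 ran against the rest between the DMSO mice.
Rps27 (chr3:90213619-90213678, minus strand): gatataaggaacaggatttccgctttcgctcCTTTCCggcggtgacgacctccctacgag
Rps27rt (chr9:114982710-114982769, minus strand): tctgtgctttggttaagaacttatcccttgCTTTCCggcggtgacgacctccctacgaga
Rpl37a (chr1:72711230-72711289, plus strand): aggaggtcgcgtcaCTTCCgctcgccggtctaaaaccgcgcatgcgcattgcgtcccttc
Rpl10 (chrX:74270786-74270845, plus strand): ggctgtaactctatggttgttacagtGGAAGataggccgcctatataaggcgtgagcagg
Rps25 (chr9:44407684-44407743, plus strand): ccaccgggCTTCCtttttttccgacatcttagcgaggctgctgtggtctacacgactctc
Rpl7l1 (chr17:46782627-46782686, minus strand): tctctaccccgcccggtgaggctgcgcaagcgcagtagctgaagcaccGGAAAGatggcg
Rps19bp1 (chr15:80264277-80264336, minus strand): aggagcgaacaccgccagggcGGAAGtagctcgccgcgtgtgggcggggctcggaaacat

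In these letters Rps27 and Rps27rt shared an unbroken run of 29 bases that begins at base 2 of Rps27 and base 1 of Rps27rt and lies within both transcripts, counted from each start. A C followed by at least 4 pyrimidines between 5 bases before and 10 after the start was found in 28 of 59 members (47.5%), against 21.2% of 27025 genes with an entry. A gene with several starts was counted if any of them matched. CTTTCC stood on the gene strand in 18.6% of members and 3.4% of all genes with an entry. CTTCC was present on the gene strand in 35.6% and 14.4%, respectively, and CCGGAAG, the letters of an ETS-type site, in 16.9% and 2.33%. TATAAA was found in 5.08% of members and 2.44% of all. On either strand the shares were 22% against 6.44% for CTTTCC, 55.9% against 28.5% for CTTCC and 22% against 4.46% for CCGGAAG. These matches describe the letters in the windows and were not tied to the expression values.

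The libraries held 14127506 to 17577466 counts each. Levels are given as CPM, counts relative to the library size after TMM normalization, and 3 counts, taken as the floor, were 0.168 to 0.217 CPM. The 7 macrophage and gate genes, among them Csf1r, Cd68 and Emr1 (F4/80), were all detected in every library and summed to 4439 to 6122 CPM. Melanoma genes (Pmel, Mlana, Tyr, Tyrp1, Dct) summed to 424 to 2876 CPM, with all 5 detected in every mouse and the highest sum in S.C. mouse 1. Neutrophil genes reached 231 CPM in S.C. mouse 2 against 4.14 to 34.9 CPM in the other mice, and in that mouse all 6 had counts. The 7 T and NK cell genes summed to 0.948 to 35.5 CPM, with 2 to 6 detected and Ncr1 at 0 in 6 mice. The 4 collagen and decorin genes of fibroblasts reached at most 1.26 CPM and were all at 0 in 4 mice. The 3 globin genes summed to 2.34 to 543 CPM, with S.C. mouse 1 and DMSO mouse 2 highest. The part of these cells in the members' levels was not tested. In sorted bulk samples, fewer cells of a type and less RNA per cell cannot be told apart.

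Reads on the 79 members made up between 0.982% and 1.96% of all counts. The share was 1.10% and 1.89% in the DMSO mice, 1.96%, 1.33%, 1.87% and 1.09% in I.P. mice 1 to 4, and 1.49% and 0.982% in S.C. mice 1 and 2. As group means this was 1.49% ± 0.564 (SD, n = 2) for DMSO, 1.56% ± 0.419 (n = 4) for I.P. and 1.24% ± 0.359 (n = 2) for S.C. The ranges of the 3 groups overlapped, and the spread within each group exceeded the distance between group means. The balance of the subunits was steadier, with 56.5% to 59.3% of member counts on large-subunit genes in every mouse. Per kilobase of annotated transcript, Rpl13 and Rps19 were among the members with the highest mean levels, 624 and 548 CPM per kb. Rps15a, Rpl22 and Rps20 had the lowest, 9.74, 16.8 and 19.9 CPM per kb, where the annotated models of Rps15a and Rps20 have a length of 5130 and 3706 bases against a median of 779 bases over the 78 members with a length. Rps20 was at 38.5 and 97.4 CPM in the DMSO mice and Rps15a at 25.4 and 66.8 CPM, before division by length.

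The members varied between mice of the same group, and they varied together. Each member's level in a mouse was compared with its own mean over the 8 mice on the log2 scale. The median deviation of the 79 members was -0.45 and 0.38 in the DMSO mice, 0.56, -0.10, 0.41 and -0.44 in I.P. mice 1 to 4, and 0.20 and -0.47 in S.C. mice 1 and 2. In DMSO mouse 2, I.P. mouse 1 and I.P. mouse 3, 76 members each were above their own mean, against 3 in DMSO mouse 1, 3 in I.P. mouse 4 and 1 in S.C. mouse 2. I.P. mouse 1 held the highest value of 49 members, while DMSO mouse 1 and S.C. mouse 2 held the lowest value of 28 members each and I.P. mouse 4 of 20. Every group thus contained mice with high and mice with low levels of these genes.

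**Figure D1:**
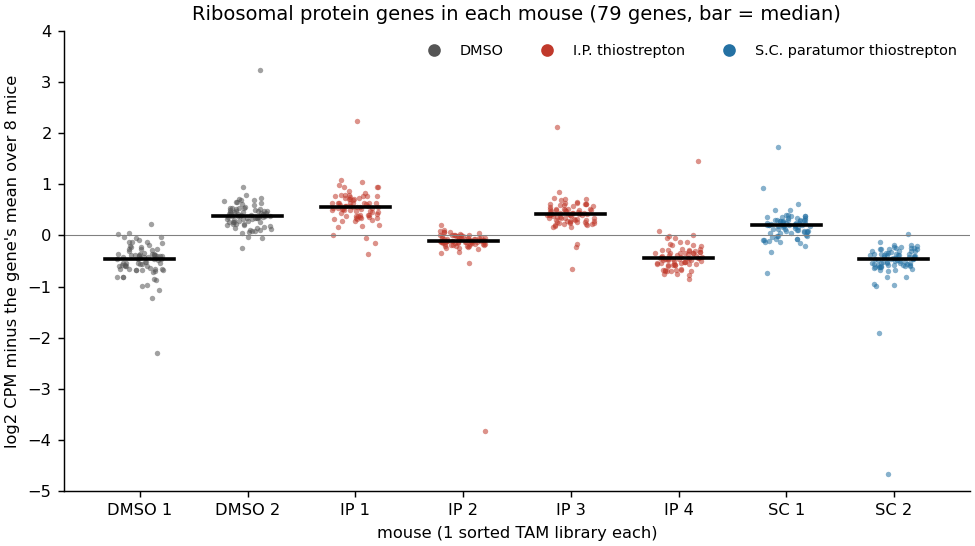
Log2 CPM of each of the 79 ribosomal protein genes minus that gene's mean over the 8 mice (y axis), for every mouse (x axis), with points for genes and a black bar for the median. Colours mark DMSO, I.P. (IP) and S.C. paratumor (SC) mice. The bars lie at -0.45 and 0.38 in the 2 DMSO mice, and the 3 lowest points, at -4.67 in SC 2, -3.83 in IP 2 and -2.31 in DMSO 1, are all Rps27.

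Most members differed between same-group mice in the same direction, but by unlike amounts. Between the DMSO mice the difference was 0.10 on the log2 scale for Rps15 and 2.01 for Rpl37a. DMSO mouse 2 was above DMSO mouse 1 in 77 of 79 members, by a median of 0.84 on the log2 scale. Of the other coding genes that averaged 20 CPM or more (5717 genes), 43.9% were higher in DMSO mouse 2, with a median of -0.06. S.C. mouse 1 was above S.C. mouse 2 in 77 members (median 0.64), against 46.4% of the other genes. Among the I.P. mice, mouse 1 was above mouse 4 in 77 members (median 0.997) and mouse 3 above mouse 4 in 76 (median 0.84), against 44.7% and 47.7% of the other genes. I.P. mouse 2 lay between, above mouse 4 in 74 members (median 0.36) and below mouse 1 in 77 (median 0.66) and mouse 3 in 76 (median 0.52). I.P. mice 1 and 3 were closest, with 58 members higher in mouse 1 and a median of 0.15. The pairs are given with the higher mouse first, a direction chosen after the values were seen, so no test was made of it.

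Few members departed from this order. Rpl7l1 and Rps19bp1 were the 2 members lower in DMSO mouse 2 than in mouse 1, Rps25 and Rpl17 the 2 lower in S.C. mouse 1 than in mouse 2, and Rpl26 and Rpl7l1 the 2 lower in I.P. mouse 1 than in mouse 4. Rpl7l1, Rpl30 and Rpl34 were lower in I.P. mouse 3 than in mouse 4. These genes were named after their values were seen. Among members of at least 20 CPM, Rps27 and Rps12 had the widest range over the 8 mice, 7.92 and 2.30 on the log2 scale, and Rpl7l1 and Rpl4 the narrowest, 0.40 and 0.61.

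Transcript length moved with these differences. Other coding genes of at most 800 bases, 230 in number, were higher in DMSO mouse 2 than in mouse 1 in 80% of cases (median 0.29 on the log2 scale), in S.C. mouse 1 than in mouse 2 in 93.0% (median 0.65) and in I.P. mouse 1 than in mouse 4 in 91.7% (median 0.68). Their median deviation was -0.16 and 0.14 in the DMSO mice, 0.35, -0.11, 0.13 and -0.36 in the I.P. mice, while S.C. mice 1 and 2 were at 0.41 and -0.27. The 2023 genes over 3200 bases had medians of 0.14 and 0.03, of -0.17, 0.05, -0.00 and 0.22, and of -0.33 and 0.24 in the same order, of opposite sign to the short genes in every mouse but DMSO mouse 2. The 40 members of at most 800 bases had medians of -0.50 and 0.45 in the DMSO mice, and the 31 members of over 800 and up to 1600 bases -0.42 and 0.34, against -0.02 and 0.01 for the 1042 other genes of that length. In S.C. mouse 1 the members were less far above their mean than other genes, at 0.26 against 0.41 up to 800 bases and at 0.11 against 0.27 in the next length class. In the I.P. mice and S.C. mouse 2 the members of that class were at 0.56, -0.10, 0.39, -0.41 (I.P. mice 1 to 4) and -0.41 (S.C. mouse 2), against 0.14, -0.03, 0.05, -0.20 and -0.18. The part of transcript length in the members' differences was not tested.

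**Figure D2:**
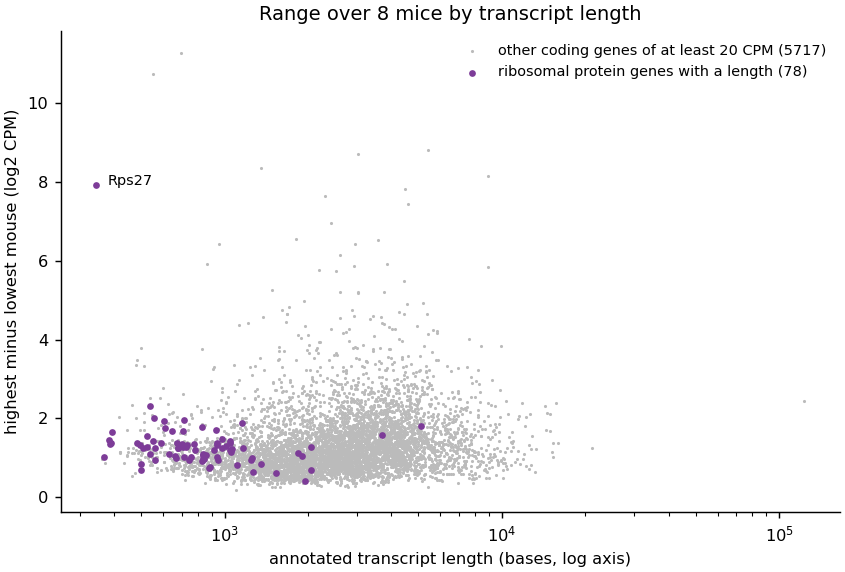
Highest minus lowest mouse in log2 CPM (y axis) against annotated transcript length in bases (x axis, log scale). Purple points are the 78 ribosomal protein genes with a length and grey points the 5717 other coding genes of at least 20 CPM. Rps27 stands apart at 7.92, and most members lie at short lengths.

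In I.P. against DMSO mice, no ribosomal protein gene passed the test. Of the 79 members, 0 had an unadjusted P under 0.05 by edgeR's quasi-likelihood test. Of the 12174 genes tested, 2.55% were higher and 0.879% lower at that threshold, and 0% had an adjusted p under 0.05. The members' log2 fold changes had a median of 0.12, against 0.02 for all genes tested, and ran from -0.72 (Rps27) to 0.51 (Rpl10). They were above 0 in 63 members and below 0 in 16, and the adjusted p was at least 0.98 for each. With library size as the only scaling, which moved the median of all genes to -0.05, 46 were above and 33 below 0, and with scaling on other short genes 53 and 26. Large-subunit and small-subunit members had medians of 0.12 and 0.14. Without I.P. mouse 1 the median was -0.04 and without DMSO mouse 1 it was -0.21, whereas it was 0.60 without DMSO mouse 2, so single mice set its sign. The median half-width of the 95% interval of a member's log2 fold change was 0.85, and for 38 members the interval included a change of 2-fold or more.

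Among members of at least 20 CPM, the 5 with the smallest P for I.P. mice were Rpl10, Rps19, Rpl13, Rpl32 and Rpl35. Rpl10, a large-subunit protein added late in subunit maturation, was at 233 and 448 CPM in the DMSO mice and at 795, 322, 522 and 300.1 CPM in I.P. mice 1 to 4. Its log2 fold change was 0.51 ± 0.45 (SE, edgeR adjusted p = 0.980, as for the next 4 genes). I.P. mice 2 and 4 lay between the DMSO mice, and I.P. mice 1 and 3 above both. Rpl32 was at 128 and 326 CPM in the DMSO mice and 493, 243, 327 and 201 CPM in the I.P. mice, a log2 fold change of 0.47 ± 0.46. Rps19, the small-subunit protein most often mutated in Diamond-Blackfan anemia, was at 254 and 432 CPM and at 641, 346, 425 and 325 CPM (0.34 ± 0.35). Rpl13 and Rpl35 had log2 fold changes of 0.35 ± 0.34 and 0.31 ± 0.29. All 5 had their highest value in I.P. mouse 1 and overlapped with the DMSO mice. The groups did not overlap for 1 member, Rps19bp1, which was at 19.3 and 15.8 CPM in the DMSO mice and 22.8, 19.9, 21.9 and 19.9 CPM in the I.P. mice (0.27 ± 0.24, adjusted p = 0.980). Of all genes tested, 7.29% had all I.P. mice above both DMSO mice and 6.88% all below, and 0 members were in the latter class.

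In S.C. against DMSO mice, 0 of the 79 members passed an unadjusted P of 0.05, where 2.5% of 11680 genes were higher and 2.91% lower and 0% passed after adjustment. Log2 fold changes ran from -1.54 (Rps27) to 0.36, with 62 members below 0 and 17 above and a median of -0.11, against 0.02 over all genes. With library size as the only scaling, which moved the median of all genes to -0.13, and with scaling on other short genes, 77 were below and 2 above 0. The median was -0.06 in large-subunit and -0.21 in small-subunit members. It was 0.35 without DMSO mouse 2 and 0.15 without S.C. mouse 2, against -0.47 without DMSO mouse 1 and -0.50 without S.C. mouse 1. The 95% intervals had a median half-width of 1.09 and included a 2-fold change in 68 members. No member had groups that did not overlap, compared with 16% of all genes with both S.C. mice higher and 18.5% with both lower.

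Rps25, Rps26, Rpl23a and Rps28 were among the members of at least 20 CPM with the smallest P for S.C. mice. Rps25, a small-subunit protein used in translation from internal ribosome entry sites, was at 161 and 311 CPM in the DMSO mice and at 133 and 171 CPM in the S.C. mice. Its log2 fold change was -0.64 ± 0.41 (adjusted p = 0.9999, as for the next 3 genes). Rps26 was at 59.7 and 119 CPM with DMSO and at 72.2 and 50.6 CPM after S.C. dosing (-0.54 ± 0.45). Rpl23a and Rps28 had log2 fold changes of -0.39 ± 0.38 and -0.51 ± 0.50. In each of these 4, DMSO mouse 2 was the highest of the 4 mice and 1 S.C. mouse lay between the DMSO mice.

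In S.C. against I.P. mice, 71 of 79 members were lower and 8 higher by sign, with a median of -0.24 against 0.02 over all genes tested. Again 0 members had an unadjusted P under 0.05, beside 3.25% of 12206 genes higher and 5.34% lower and 0% after adjustment. The median was -0.19 for large-subunit and -0.33 for small-subunit members, and without S.C. mouse 2 it was 0.06. The smallest P was that of Rps25, at 429.9, 151, 350.4 and 222 CPM in I.P. mice 1 to 4 and 133 and 171 CPM in the S.C. mice. Its log2 fold change was -0.91 ± 0.43 (unadjusted P = 0.0687, adjusted p = 0.619, 95% interval -1.90 to 0.09). I.P. mouse 2 lay between the S.C. mice, so the groups overlapped. Rps25 had an unadjusted P of 0.0389 with DESeq2, 0.0413 with library size as the only scaling and 0.0197 without I.P. mouse 2, each with an adjusted p of at least 0.428. Rpl17, Rpl27a, Rpl37a and Rps12 followed, with log2 fold changes of -0.56 ± 0.36, -0.66 ± 0.44, -0.67 ± 0.47 and -0.69 ± 0.49 and adjusted p of 0.755 to 0.786. Rpl37a was at 265, 139, 276 and 94.3 CPM after I.P. and at 138 and 102 CPM after S.C. dosing, and Rps12 at 104, 51.1, 76.4 and 30.5 CPM and at 46.7 and 33.4 CPM. In both genes the S.C. values lay within the I.P. range. Rpl17 was at 213, 118, 175 and 98.8 CPM and at 100.5 and 101 CPM, where I.P. mouse 4 was lowest. Rpl7l1 was above all I.P. mice in both S.C. mice and Rps6 below all of them, as 1 member each, where 7.46% of all genes tested were wholly higher and 11.1% wholly lower. The intervals of 54 members included a 2-fold change.

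**Figure D3:**
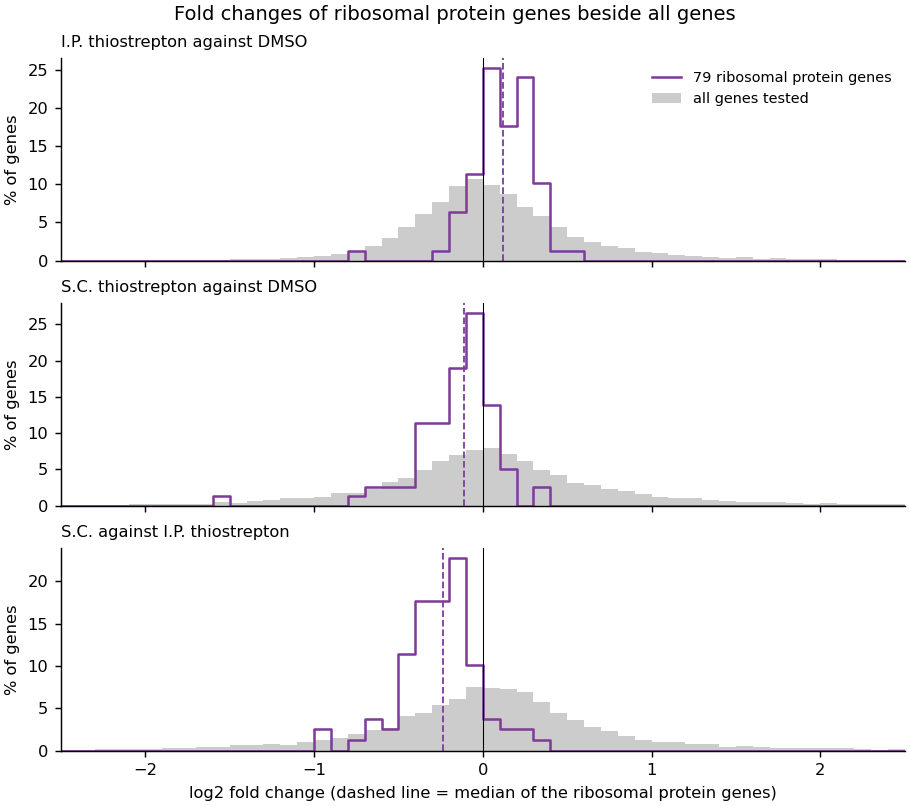
Percentage of genes (y axis) by log2 fold change in bins of 0.1 (x axis) for the 3 comparisons. Grey bars are all genes tested and the purple line the 79 ribosomal protein genes, with their median dashed, and genes beyond 2.5 in either direction (0.879%, 4% and 5.46% of genes tested) are not drawn. The medians lie at 0.12, -0.11 and -0.24.

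The group differences of the members can be set beside the differences between mice of the same group. In I.P. against DMSO mice, the distance between group means of log2 CPM was less than the range within each of the 2 groups for 78 of 79 members. For S.C. against DMSO this held for 73 members and for S.C. against I.P. for 65. The same count was not made over all genes, so whether it is particular to the members is not known. Doubling the smallest one-sided p that an exact permutation of the mice allows gives 0.133 for 4 against 2 mice and 0.333 for 2 against 2. The I.P. and S.C. comparisons share the 2 DMSO mice, so their values for a member are not independent of each other.

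Several members have a known role beside protein synthesis. Rps6, the small-subunit protein phosphorylated by the S6 kinases, was at 320.0 and 379 CPM with DMSO, 456, 332, 419 and 339.6 CPM after I.P. and 329.7 and 273 CPM after S.C. dosing. The log2 fold change of Rps6 from I.P. to S.C. mice was -0.33 ± 0.26 (adjusted p = 0.811). Rpl5 and Rpl11, which with the smallest ribosomal RNA of the large subunit bind Mdm2 and restrain its action on p53, had different spreads. Rpl5 was at 339 and 401 CPM with DMSO, at 394, 339.7, 385 and 252 CPM after I.P. and at 404 and 272 CPM after S.C. dosing. Rpl11 was at 84.3 and 151 CPM, at 180.2, 101, 172 and 90.8 CPM and at 140.1 and 98.4 CPM. The range over the 8 mice was 0.68 on the log2 scale for Rpl5 and 1.09 for Rpl11. Their log2 fold changes for I.P. mice were -0.11 ± 0.25 and 0.21 ± 0.38, with an adjusted p of 0.983 and 0.980.

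Rps3, which also takes part in NF-κB-dependent transcription and DNA repair, was at 327 and 465 CPM with DMSO, 644, 381, 501 and 338 CPM after I.P. and 456 and 312 CPM after S.C. dosing. Rpl13a, which leaves the ribosome in interferon-γ-treated monocytes to silence inflammatory mRNAs, was at 84.8 and 147.99 CPM, at 193, 112, 146 and 97.3 CPM and at 138 and 103 CPM. Both had the highest value in I.P. mouse 1, and their log2 fold changes were 0.23 ± 0.31 and 0.23 ± 0.35 for I.P. mice and -0.04 ± 0.36 and 0.05 ± 0.39 for S.C. mice. Rps27a, which is made as a fusion with ubiquitin, was at 122 and 239.6 CPM, at 247, 157, 231 and 122 CPM and at 183 and 123 CPM. Rps14, whose loss in humans is tied to the anemia of the 5q- syndrome, ran from 210.2 to 419.5 CPM over the 8 mice, with I.P. mouse 1 highest and I.P. mouse 4 lowest. Rpl38, needed for translation of Hox mRNAs in the embryo, ran from 88.2 CPM in S.C. mouse 2 to 177 CPM in I.P. mouse 1. For Rps3, Rpl13a, Rps27a, Rps14 and Rpl38 the adjusted p was at least 0.980 for either route.

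Rpl22 and its relative Rpl22l1 can be set side by side, since Rpl22 protein is known to bind and repress the mRNA of Rpl22l1. Rpl22 was at 20.6 and 50.003 CPM with DMSO, at 39.9, 32.1, 46.4 and 22.4 CPM after I.P. and at 40.5 and 24.1 CPM after S.C. dosing. Rpl22l1 was at 16.8 and 36.1 CPM, at 35.0, 24.2, 30.1 and 20.7 CPM and at 29.99 and 23.1 CPM. Both genes were thus lowest in DMSO mouse 1 and highest in DMSO mouse 2 of the 8 mice. Rpl22l1 shared 51.9% of its 50-base words with another gene of the table, so its counts are uncertain.

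Among the relatives, Rpl7l1 was the steadiest member. It was at 246 and 204 CPM with DMSO, 192, 214, 188 and 195 CPM after I.P. and 248 and 215 CPM after S.C. dosing. The S.C. values lay above the I.P. values, with a log2 fold change of 0.26 ± 0.23 (adjusted p = 0.833). Rpl7l1 encodes a relative of Rpl7 that is found in ribosome assembly intermediates. Rpl36al was at 122 and 198 CPM, at 202, 153, 202 and 126 CPM and at 206 and 102 CPM. As in most members, DMSO mouse 2 was above mouse 1 and S.C. mouse 1 above mouse 2. Unlike in most members, S.C. mouse 1 had the highest value of all mice. Rps4y2 had few reads, 3.96 to 8.98 CPM in 7 mice and 1.23 CPM (17 counts) in S.C. mouse 2, and its log2 fold change in S.C. against I.P. mice was -0.92 ± 0.77 (adjusted p = 0.826).

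The widest differences between mice were those of Rps27, a small-subunit protein with a zinc finger. With DMSO it had 24 and 1433 counts (1.63 and 82.7 CPM). After I.P. dosing it had 654, 8, 674 and 395 counts (41.3, 0.489, 37.8 and 23.7 CPM), and after S.C. dosing 437 and 3 counts (28.8 and 0.217 CPM), the last at the floor. Of 6145 genes averaging 20 CPM or more, 1, Rps27 itself, was lower by at least 3 on the log2 scale in DMSO mouse 1, I.P. mouse 2 and S.C. mouse 2 than in each of the other 5 mice, a pattern named after its values were seen. The low libraries came from all 3 groups. Its fold changes had wide errors, -0.72 ± 1.37 for I.P. and -1.54 ± 2.08 for S.C. against DMSO mice, with an adjusted p of 0.980 and 0.9999. Rps27 lies on chr3:90212522-90213651 on the minus strand, and the start shown above is inside it. Of the 50-base words of its annotated transcript of 345 bases, 98.6% also occur in Rps27rt, the copy whose start window is printed beside it. Rps27rt has no row of its own among the counts, so its level could not be read. Its relative Rps27l, a p53 target on chromosome 9, shared 22.4% of its words with other genes and was at 133 and 189 CPM, at 141, 140.3, 179 and 105 CPM and at 186 and 119 CPM, with no such split.

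**Figure D4:**
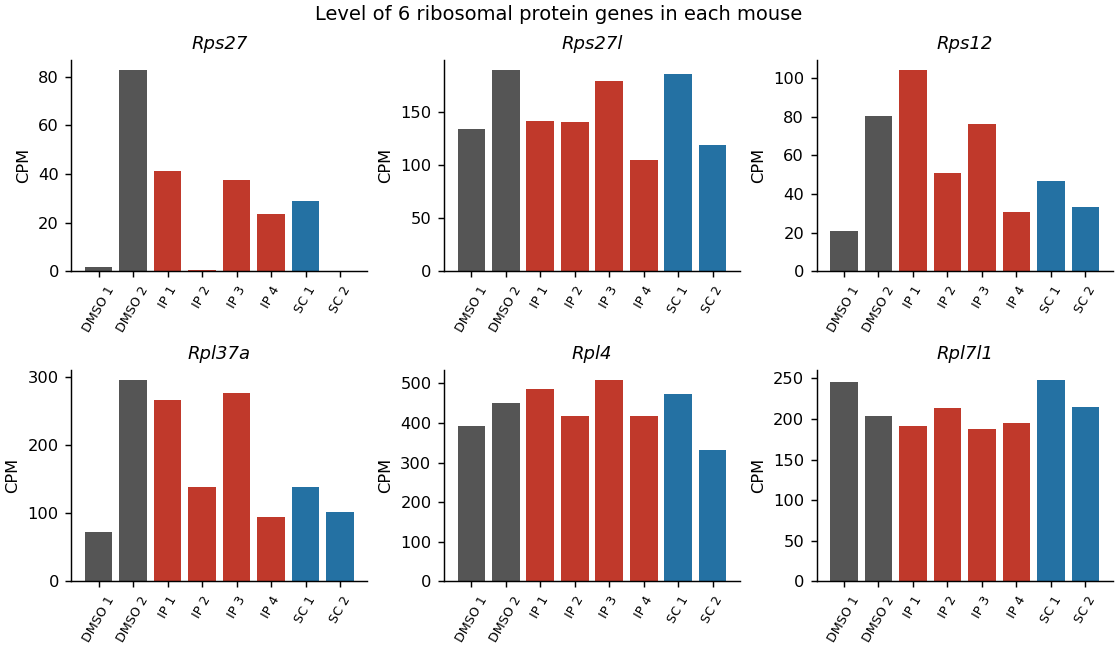
CPM (y axis, from 0) in each of the 8 mice (x axis) for Rps27, Rps27l, Rps12, Rpl37a, Rpl4 and Rpl7l1, coloured by group with DMSO grey, I.P. red and S.C. blue. Rps27 is near 0 in DMSO 1, IP 2 and SC 2, Rps12 and Rpl37a are low in DMSO 1, IP 4 and SC 2, and Rpl4 and Rpl7l1 differ little.

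Many members share stretches of sequence with other annotated genes. A median of 57.0% of a member's 50-base words were found in at least 1 other GENCODE gene, and 48 of the 78 members found in that annotation shared over 50%. Words shared with a gene that had its own row in the table were fewer, over 50% in 5 members and 0% in 49. Of members named above, Rpl10 shared 92.1% of its words with any other gene, Rps12 90.1%, Rps6 84.6%, Rps25 61.2% and Rpl37a 38.5%, against 12.2% for Rpl7l1, 2.96% for Rps3 and 0% for Rps19bp1. Beside the counts, the high values mean that a read of 50 bases from these genes can match elsewhere. Rpl34 had 2124 counts over the 8 mice and its pseudogene row Rpl34-ps1 15041 counts, 7.08 times as many. Rpl34 alone was at 14.98 and 18.1 CPM with DMSO, 24.2, 16.4, 13.5 and 13.9 CPM after I.P. and 22.6 and 9.03 CPM after S.C. dosing. The sum of both rows was 97.5 and 154 CPM, 202, 116, 153 and 93.2 CPM, and 160.0 and 90.4 CPM, which within each group is the order of mice seen in most members. Rpl26 was at 16.3 and 23.2 CPM, at 13.8, 16.6, 23.5 and 16.2 CPM and at 34.3 and 8.96 CPM, with 51.9% of its words shared with a gene of the table, and Rpl30 likewise departed from that order in I.P. mouse 3, at 13.8 CPM against 30.8 CPM in I.P. mouse 1.

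Other genes of the pathway were read from lists chosen with earlier results known. The 7 ribosomal proteins with other symbols (among them Rplp0, Rpsa and Gnb2l1, the table's symbol for Rack1) had 0 higher and 0 lower genes at P under 0.05 in each of the 3 comparisons, with medians of 0.19, 0.01 and -0.15. By mouse their median deviations were -0.49 and 0.21 with DMSO, 0.61, -0.15, 0.36 and -0.47 after I.P. and 0.38 and -0.47 after S.C. dosing. Within each group this is the order seen in the 79 members. Across groups it differed, with S.C. mouse 1 above I.P. mouse 3 and DMSO mouse 2 here and below both in the 79 members. Rpsa was at 228 and 470.0 CPM in the DMSO mice, and Rplp0, the stalk base that carries the other acidic proteins, at 499 and 635 CPM.

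The 20 translation factors and other genes with TOP mRNAs had 0 higher and 1 lower gene in I.P. against DMSO mice and none in the other comparisons, with medians of 0.05, 0.02 and -0.03. The 1 gene was Hnrnpa1, an RNA-binding splicing factor, at 190.4 and 181 CPM in the DMSO mice and 61.2, 132, 135 and 91.0 CPM in the I.P. mice (-0.82 ± 0.33, unadjusted P = 0.0338, adjusted p = 0.980). Eef2, the elongation factor that moves the ribosome along the mRNA, was at 246 and 348 CPM and at 743, 344, 343 and 327 CPM (0.56 ± 0.39, adjusted p = 0.980). Among 34 genes of ribosome biogenesis, 0 passed in each comparison. Of their log2 fold changes, 31 were below 0 for I.P. mice (median -0.22) and 27 for S.C. mice (median -0.34), the opposite sign to the members' median for I.P. mice. Dkc1, the pseudouridine synthase of ribosomal RNA, was at 74.8 and 63.7 CPM in the DMSO mice and 24.3, 47.8, 56.1 and 41.0 CPM in the I.P. mice (-0.71 ± 0.33, adjusted p = 0.980). Nop58, of the methylation complex, was at 74.8 and 83.7 CPM with DMSO and 40.3 and 54.8 CPM after S.C. dosing (-0.74 ± 0.34, adjusted p = 0.960). After I.P. dosing Nop58 was at 40.3, 74.9, 90.4 and 62.0 CPM in mice 1 to 4, with mouse 3 above both DMSO mice. Both comparisons use the same DMSO mice. Of 17 regulators of translation, 0 passed in each comparison, with medians of 0.23, -0.23 and -0.20. Rps6kb1, the S6 kinase, was at 57.4 and 46.5 CPM in the DMSO mice and 33.9 to 39.0 CPM in the I.P. mice (-0.48 ± 0.22, adjusted p = 0.980).

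**Figure D5:**
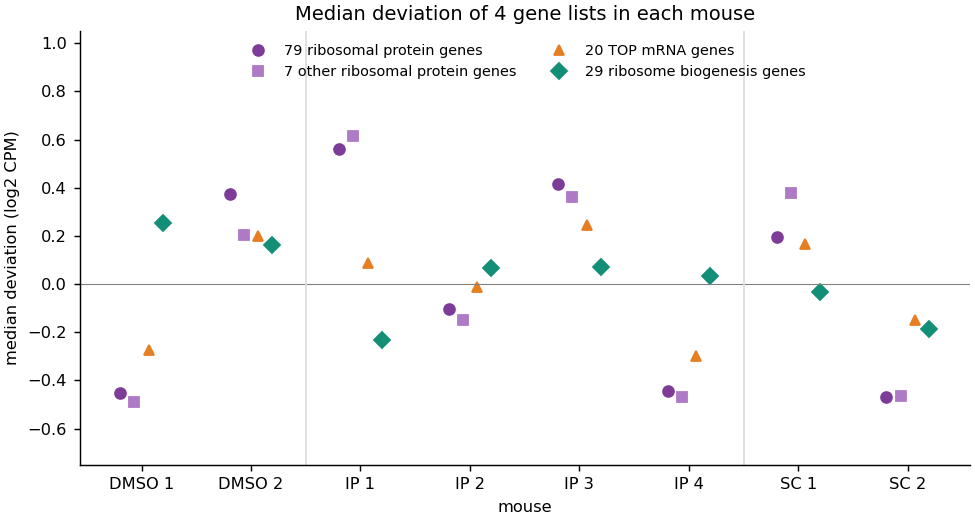
Median deviation in log2 CPM from each gene's mean over 8 mice (y axis) for 4 gene lists in every mouse (x axis), with grey lines between the DMSO, IP and SC mice. The 79 members and the 7 other ribosomal protein genes move together, the 20 TOP mRNA genes less far, and the 29 ribosome biogenesis genes of at least 20 CPM run from 0.25 in DMSO 1 to -0.23 in IP 1.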

How the data were processed

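The input was 1 table of RNA-seq counts with 23413 gene symbols and 1 column per mouse. The authors deposited whole-number counts that are not normalized, made from reads aligned to mm10. The paper's methods name bowtie2 and RSEM, while the submitters' processing notes name TopHat2 and edgeR, and how reads with several matches were divided is not given in the sources used here. Groups follow the sample labels, where IS stands for the S.C. mice. The members and the gene lists were chosen with earlier results of these data known.

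Tests used edgeR 4.0.16 (limma 3.58.1) under R 4.3.3. For each pair of groups, genes were kept by filterByExpr (minimum count 10, minimum total 15), scaled by TMM and tested by the two-sided quasi-likelihood test, with Benjamini-Hochberg adjustment over all genes tested. All 79 members passed the filter in each comparison. A standard error is the log2 fold change divided by the square root of F, and 95% intervals use the test's degrees of freedom. Log2 CPM used a prior count of 2. Totals were 14127506 to 17577466 counts, and the floors (3 counts) cover counting error only. The 95% intervals come from the fit and include the spread between mice. The libraries were not duplicates, since at least 13961 rows differed between any 2. Positions and lengths are from GENCODE vM21 (GRCm38, the same assembly as mm10), with 21777 symbols (93.0%) and 78 members found, the length being the median of the principal coding transcripts. Words of 50 bases were compared over all its transcripts.

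Members were named if among the 5 smallest P in a comparison (at least 20 CPM), on the lists of roles and relatives, the 3 highest or lowest per kilobase, or the 2 widest or narrowest in range. In the other lists the 2 smallest P against DMSO for each route were considered. Alternatives were DESeq2 1.42.0, the likelihood ratio test, other filters and scalings, 1 fit over the 3 groups, same-numbered mice as a block, standard members only, and leaving out each mouse. After the data were seen, TMM on other coding genes with transcripts of up to 1000 bases and a block with crossed numbers were added. The procedure was tested on simulated data. Some genes that the rule names are not reported here.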

Additional observations from a re-analysis of the deposited data

Results flagged for a closer look

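I.P. mouse 2 stood apart from the other I.P. mice in Rps27, at 0.489 CPM against 23.7 to 41.3 CPM, by Dixon's criterion for 4 values. Of the 79 members checked in the I.P. mice, Rps27 was the 1 with such a mouse, and chance alone marks about 1 in 20 groups. DMSO mouse 1 and S.C. mouse 2 were likewise low, in groups too small for the criterion.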

How the results depend on the processing

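No member passed an unadjusted P of 0.05 in the analysis as reported, and this held under the other filters, RLE size factors, the likelihood ratio test, all 3 groups in 1 fit, and scaling on genes that are not members. In S.C. against I.P. mice 1 member, Rps25, passed with DESeq2, when 1265 of 12206 genes passed. With library size only, 1 member passed, Rps25 too, when 1056 of 12206 genes did. In S.C. against DMSO mice 1, Rps27, passed under the block with crossed numbers, when 546 of 11680 genes passed. Leaving out single mice gave 0 to 2 members in I.P. against DMSO (Rps12 and Rpl32 without DMSO mouse 2, when 324 of 12767 genes passed), 0 to 7 in S.C. against DMSO and 0 to 2 in S.C. against I.P. mice (Rps4y2 and Rps27 without S.C. mouse 1, with 2225 of 12847 genes, Rps25 without I.P. mouse 2, with 689 of 12084, Rpl26 without S.C. mouse 2, with 2347 of 12907). The 7 were lower without S.C. mouse 1, when 3714 of 12210 genes passed too, and 2 of them, Rps4y2 and Rps27, had an adjusted p under 0.05. There a single S.C. mouse is assumed to vary like the DMSO mice. Without DMSO mouse 1, Rpl37a passed in S.C. mice (208 of 12390 genes), and without S.C. mouse 2, Rpl26 did (4203 of 12349 genes). The medians of members ranged from -0.21 to 0.60, -0.50 to 0.35 and -0.61 to 0.06 when single mice were left out. They turned sign without DMSO mouse 1 or I.P. mouse 1 (I.P.), DMSO mouse 2 or S.C. mouse 2 (S.C.), and S.C. mouse 2 (S.C. against I.P.). With the replicate block for same-numbered mice, 0 members passed in each comparison and the medians were 0.26, -0.10 and -0.35. Deviations of same-numbered mice from their group means correlated at -0.144 to 0.0746. In groups of 2 mice the deviations mirror each other, so S.C. against DMSO gave -0.144 for both numbers. Whether same-numbered mice were handled together is not given, and these values cannot decide it. Over all genes the block moved the calls at an unadjusted P of 0.05 from 418, 632 and 1049 to 334, 431 and 443. Where the quasi-likelihood test left 0 genes of any kind at an adjusted p under 0.05, the likelihood ratio test called 10, 179 and 265 and DESeq2 19, 107 and 234, with 0 members among them. With library size only they were 0.04, -0.27 and -0.32, as the median of all genes moved to -0.05, -0.13 and -0.08, and with scaling on short genes 0.06, -0.25 and -0.32.

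The share of counts on members was 2.19% in I.P. and 1.76% in S.C. mice without the 50 most abundant other rows, a smaller total by construction. The DMSO share on that total is not given here, so neither value can be set against the vehicle. With all rows the group means were 1.49% for DMSO, 1.56% for I.P. and 1.24% for S.C. mice. The table had 0 mt- rows, so leaving them out changed nothing. With library size only, Rpl22l1 had a log2 fold change of -0.034 for I.P. mice, and Rpl7l1 and Rpl22l1 had -0.11 and -0.15 for S.C. mice. With scaling on short genes the latter were -0.079 and -0.080. The cause of these changes in sign was not tested. Log2 fold changes that turned sign when single mice were left out ranged, for I.P. mice, from -0.042 to 1.30 (Rpl32), -0.21 to 0.49 (Rpl36al), -0.39 to 0.71 (Rpl22l1) and -0.42 to 0.084 (Rps27l). For S.C. mice they ranged from -0.62 to 0.28 (Rps19bp1), -0.45 to 0.65 (Rpl22l1), -0.96 to 0.032 (Rps26), -0.75 to 0.060 (Rpl23a), -1.0 to 0.22 (Rps28), -0.65 to 0.34 (Rpl36al), -0.095 to 0.17 (Rpl7l1) and -0.45 to 0.18 (Rps27l). In S.C. against I.P. mice the ranges were -0.24 to 0.15 (Rpl22l1), -0.24 to 0.42 (Rps27l), -0.73 to 0.30 (Rpl36al) and -0.86 to 0.063 (Rps19bp1).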

Other observations

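Of the 5 pseudogene rows left out of the members, 4 had more than 1000 counts. Rps15a-ps4 and Rps15a-ps6 held 1885 and 3464 counts, 0.291 and 0.534 times those of Rps15a, and Rpl31-ps12 held 1587 counts. DMSO mouse 2 exceeded DMSO mouse 1 by 1.28, 1.34, 1.60 and, for Rpl34-ps1, 0.72 on the log2 scale, the direction seen in the ribosomal protein genes.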
